A study of Mus musculus with 160 samples.

Results

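The 10 genes described here encode junction and surface proteins by which endothelial cells are usually recognised: Cdh5, Pecam1, Cldn5, Esam, Emcn, Cd34, Icam2, Mcam, Robo4 and Egfl7. They were chosen by name, with earlier results of these data known, and all 10 were found among the 46078 genes of the count table. Their levels were measured in cells of the aorta-gonads-mesonephros (AGM) region, the tissue around the embryonic aorta in which the first haematopoietic stem cells arise, from mouse embryos carrying 1 Gata3-GFP allele (Gata3-GFP +/-), a knock-in in which green fluorescent protein reports Gata3 transcription. GFP+ and GFP- cells of 4 types were sorted, so both the GFP+ and the GFP- cells carry the reporter allele in place of 1 copy of Gata3. RNA-seq was performed with the Smart-seq2 protocol on pools of 20 cells, 20 pools for each of the 8 populations.

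Endothelial cells (EC) and haematopoietic cells (HC) came from E10.5 (embryonic day), mesenchymal cells (MC) and sympathetic nervous system cells (SNS) from E11.5. According to the study's methods, ECs were gated on VE-cadherin without CD41 and CD45, HCs on CD41/CD45, MCs on Pdgfrb and SNS cells on Ngfr. Cells of several embryos were pooled before sorting, and the pools are not tied to embryos or litters in the sources used here. By the same methods, the E10.5 cells came from only 3 to 5 biological replicates, so the 20 pools of a population are divisions of fewer independent samples. Every p-value below measures the spread between pools, which may in part be technical, and is too small as a statement about embryos. GFP marks cells in which the reporter was active at the time of sorting and is not a loss of Gata3, and no test was made between embryonic days. Where E10.5 and E11.5 levels are set side by side they are a description, because cell type and day cannot be told apart.

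The junctions between endothelial cells hold the vessel wall together. VE-cadherin (Cdh5) forms the adherens junction through catenins on its inner side, Pecam1 and Esam are immunoglobulin-type adhesion proteins at the cell border, and Cldn5 is the main claudin of endothelial tight junctions. Emcn and Cd34 are sialomucins of the cell surface, Icam2 is a ligand of leukocyte integrins, Mcam (CD146) is an adhesion protein of endothelium, pericytes and neural crest derivatives, Robo4 is the Roundabout receptor of endothelium, and Egfl7 is a secreted protein that hosts the microRNA Mir126a in an intron. During the endothelial-to-haematopoietic transition (EHT), cells of the aortic wall round up, lose these contacts and enter the blood stream. Several of these proteins are also known outside endothelium: Cd34 on haematopoietic progenitors, and Pecam1, Esam and Icam2 on megakaryocytes, platelets or leukocytes.

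Of 160 pools, 7 failed the quality limits, and the rest held between 1400824 and 16004756 counts on genes, with a median of 3801233. Gata3 itself ranged from 28.5 to 174 CPM (counts scaled to library size with edgeR's TMM factors) in GFP+ ECs and from 4.37 to 29.6 CPM in GFP- ECs, and was at least 12.7 CPM in GFP+ HCs and at most 12.9 CPM in GFP- HCs. In each of the 4 E11.5 populations, 3 libraries went against their label. Those labelled MC had 0.952 to 12.4 CPM of Pdgfrb and 28.9 to 323 CPM of Ngfr, and those labelled SNS had 116.5 to 249.5 CPM of Pdgfrb and 0.904 to 7.73 CPM of Ngfr. E11.5 levels by population include these 12 libraries unless stated, and the E11.5 tests of the members are given with and without them. Among the 20 GFP+ HC pools, 10 held more than 40 CPM summed over 10 sympathetic and neural crest markers, and 1 had only 4.65 CPM of Ptprc, which encodes CD45, against a median of 208 CPM.

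In 9 of the 10 genes the highest median level was found in 1 of the EC populations, and in Mcam in GFP+ MCs. At the adherens junction, Cdh5 ranged from 755 to 1733 CPM in GFP+ ECs (median 1000.1 CPM) and from 265 to 725 CPM in GFP- ECs (median 430 CPM). The HC pools followed far below, with medians of 9.67 CPM (GFP+) and 4.04 CPM (GFP-), and the median was 0 in all 4 E11.5 populations. For Cdh5, the sort itself separates ECs from HCs, so that this step is a description. Pecam1 had medians of 852 CPM in GFP+ ECs, 401 CPM in GFP- ECs, 48.4 CPM in GFP+ HCs and 25.5 CPM in GFP- HCs, and a median of at most 0.22 CPM in each E11.5 population. For both genes every EC pool lay above every HC pool.

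The tight junction gene Cldn5 had medians of 1309 and 863 CPM in GFP+ and GFP- ECs, and of 10.4 and 5.23 CPM in GFP+ and GFP- HCs. It was also read in SNS cells, from 0 to 62.5 CPM in the GFP+ pools (median 8.11 CPM, 12 of 18 pools with at least 10 counts) and from 0 to 16.1 CPM in the GFP- pools (median 1.09 CPM, 9 of 19 pools). Esam had medians of 739 and 387 CPM in GFP+ and GFP- ECs. Outside ECs its median was 59.4 CPM in GFP+ HCs and 3.07 CPM in GFP- HCs, and 1 GFP+ HC pool held 331 CPM, above the lowest EC pool (236 CPM). Esam was also present in GFP+ MCs at a median of 16.2 CPM, and at a median of 0 in the other E11.5 populations.

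Among the surface proteins, Emcn and Robo4 had their highest medians in GFP- ECs, at 1306 and 126.9 CPM, against 821 and 75.8 CPM in GFP+ ECs. Neither approached these levels in HCs, where Emcn had medians of 13.8 and 6.01 CPM and Robo4 of 1.08 and 0.659 CPM in GFP+ and GFP- pools. Of the HC pools, 1 of 20 GFP+ and 0 of 20 GFP- pools held 10 or more counts of Robo4. Cd34 was the most highly counted member in GFP+ ECs, with a median of 1461 CPM against 651 CPM in GFP- ECs, and in contrast to the junction genes its level in HCs was higher in the GFP- pools (median 111.6 CPM) than in the GFP+ pools (32.8 CPM). Cd34 was also present in MCs, with medians of 90.8 CPM (GFP+) and 15.3 CPM (GFP-). Icam2 had medians of 715 and 339 CPM in GFP+ and GFP- ECs, 16.8 and 38.6 CPM in GFP+ and GFP- HCs, and at most 0.0915 CPM in the E11.5 populations.

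Mcam differed from the other 9 genes in its distribution. It was high in both E11.5 cell types, with medians of 281 CPM in GFP+ MCs, 211 CPM in GFP- SNS cells, 115.4 CPM in GFP+ SNS cells and 102.5 CPM in GFP- MCs, next to 276 CPM in GFP+ ECs and a range of 61.4 to 279 CPM in GFP- ECs. Its lowest levels were in HCs, with medians of 5.29 and 1.24 CPM. Egfl7 was present everywhere, at medians of 1065 and 757 CPM in GFP+ and GFP- ECs, 39.98 and 44.9 CPM in GFP+ and GFP- HCs, and 7.35 to 8.81 CPM in the E11.5 populations, whose ranges overlapped. Over the 8 population means, the correlation of each gene with the average of the 10 was 0.183 for Mcam and 0.903 to 0.992 for the others. These are descriptions over 8 points. In Egfl7, 11.2% of the exon bases are shared with other annotated genes (Gm20532, Mir126a, Mir126b and Agpat2), so that part of its reads could have been assigned elsewhere or left out.

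Placed in order, neighbouring populations mostly overlapped. The ranges of GFP+ and GFP- ECs were separate only for Cdh5 and Cd34. Those of ECs and the next population were separate for Cdh5, Pecam1, Cldn5, Emcn, Cd34, Icam2, Robo4 and Egfl7, but not for Esam and Mcam. Below the ECs, Pecam1 in every HC pool (at least 13.4 CPM) lay above every E11.5 pool (at most 3.87 CPM), whereas Cdh5 in 1 GFP- MC pool (2.88 CPM) reached into the GFP- HC range. Per kb of exon, GFP+ ECs held a median of 925 CPM per kb of Cldn5, 376 of Icam2, 297 of Egfl7, 258 of Esam, 238 of Cdh5, 200.4 of Cd34, 151.8 of Emcn, 136.8 of Pecam1, 82.2 of Mcam and 14.3 of Robo4, so that Cd34, first by CPM, lay below 5 others by this measure. The genes closest in pattern over the 8 population means, among 10166 genes with at least 20 CPM in 1 population, were Sox18 (r = 0.997), Sox7 (r = 0.994), Tek (r = 0.994), Adgrl4 (r = 0.993) and She (r = 0.993), again as a description over 8 points.

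**Figure D1:**
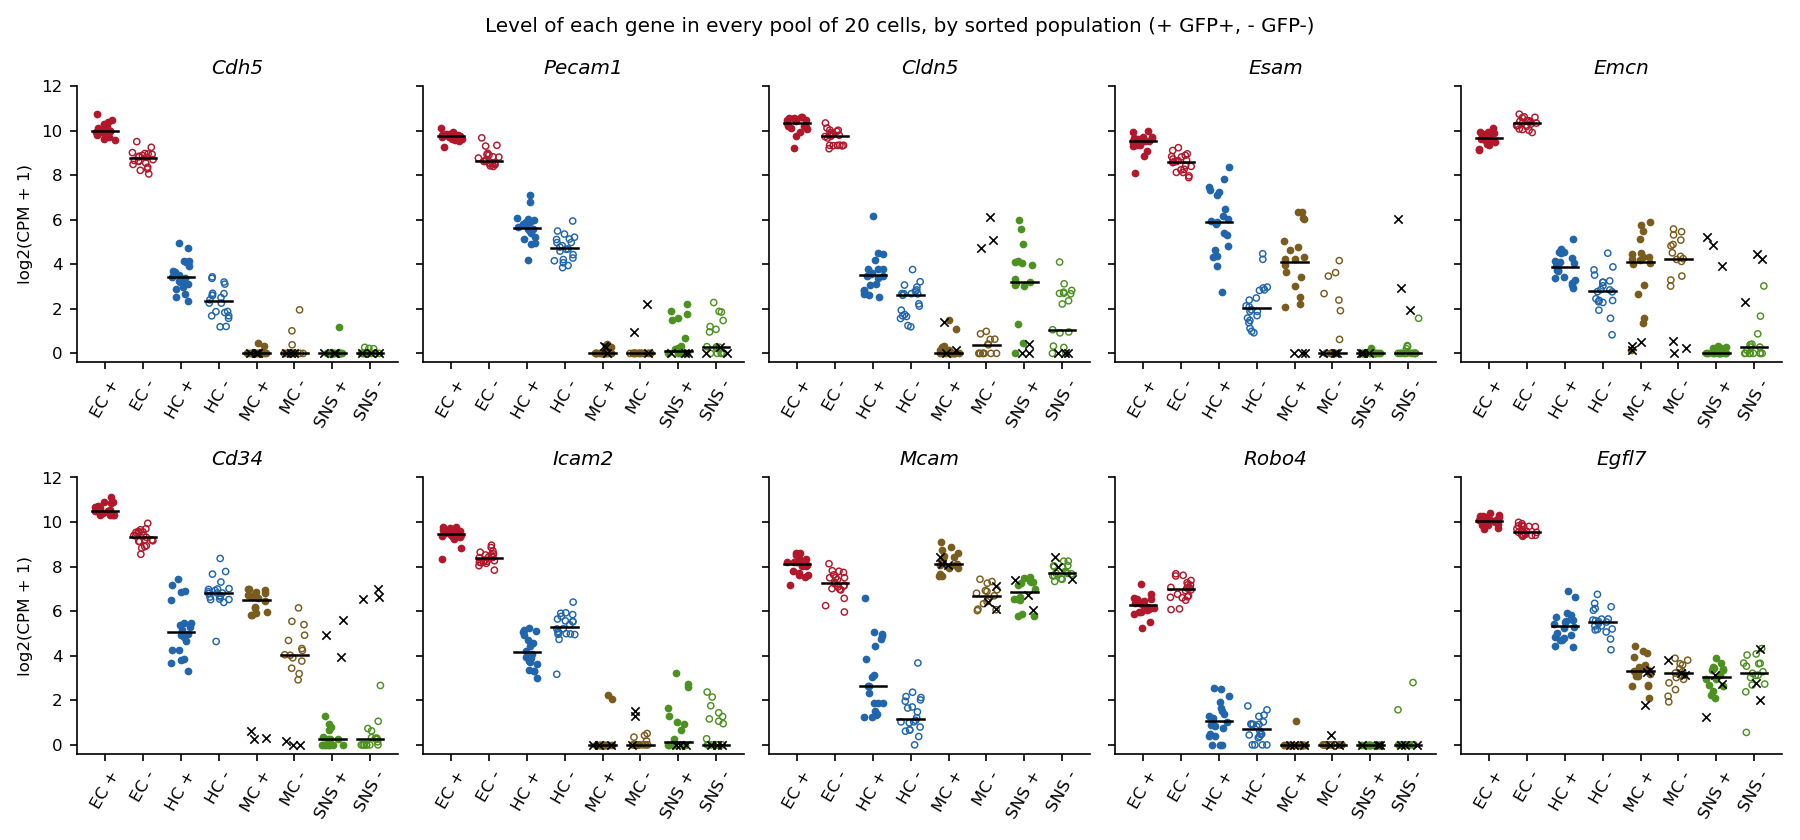
Level of each gene, as log2(CPM + 1), in every pool of 20 cells that passed the quality limits, by sorted population (filled points GFP+, open points GFP-, black bar the median, cross an E11.5 library whose markers go against its label). In 9 panels the red EC points stand above the other populations, with Esam reaching into GFP+ HCs, whereas Mcam is as high in MC and SNS pools as in ECs.

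The first comparison asked how ECs with an active Gata3 reporter differ from those without, both of which held Gata3 transcripts. A gene was called where the quasi-likelihood test of edgeR gave a Benjamini-Hochberg adjusted p below 0.01 and the log2 fold change was larger than 0.1 in size. All 10 genes changed between GFP+ and GFP- ECs: 8 were higher in GFP+ ECs and Emcn and Robo4 were lower. In this comparison 36% of the 15073 genes tested were called, 19.5% higher and 16.5% lower. The median log2 fold change of the 10 genes was 0.80 against 0.10 over all genes tested. In 1 fit of the 4 E10.5 populations, Cldn5 (adjusted p = 0.0121) and Mcam (adjusted p = 0.0326) lost the call. In these pools a lower number of cells of a kind and less RNA per cell cannot be told apart.

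At the junctions, Cdh5 was 2.41-fold higher in GFP+ ECs (log2 fold change 1.27 ± 0.10 SE, adjusted p = 8.21e-14), and all 19 GFP+ pools lay above the highest of the 20 GFP- pools, although both had passed the same VE-cadherin gate. Of all genes tested, 3.03% had EC ranges that did not overlap. Pecam1 was 1.86-fold higher (adjusted p = 1.51e-11), with 14 of 19 pools above the GFP- range, and Esam 1.81-fold higher (adjusted p = 4.3e-08), with 16 of 19. The smallest change at the junctions was that of Cldn5, at 1.44-fold (adjusted p = 2.68e-05), and its ranges overlapped from 603 to 1295 CPM. All 4 junction members were thus higher in GFP+ ECs by this scaling.

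Of the surface proteins, Cd34 was 2.34-fold higher in GFP+ ECs (log2 fold change 1.23 ± 0.09 SE, adjusted p = 4.16e-15), from 1258 to 2203 CPM against 375 to 985 CPM, again without overlap. Icam2 was 2-fold higher (adjusted p = 2.12e-12) and Mcam 1.68-fold higher (adjusted p = 1.66e-05), with 17 and 9 of 19 pools above the GFP- range. The secreted Egfl7 was 1.33-fold higher (adjusted p = 5.5e-07). Emcn went the other way, from 561 to 1119 CPM in GFP+ ECs against 964 to 1703 CPM in GFP- ECs, 1.63-fold lower (log2 fold change -0.71 ± 0.08 SE, adjusted p = 1.78e-10), with 16 of 19 pools below the GFP- range. Robo4 was 1.67-fold lower (log2 fold change -0.74 ± 0.14 SE, adjusted p = 2.33e-05), but its ranges, 36.5 to 147.7 CPM and 66.2 to 204 CPM, overlapped widely.

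The direction of the smaller changes depended on the scaling. ERCC spike-in RNAs took a median of 1.67% of the gene and spike-in counts in GFP+ ECs and 0.950% in GFP- ECs, and scaled by them the median over all genes moved from 0.10 to -0.60, with 951 genes called higher and 5685 lower against 2932 and 2492 by TMM. On that scale Cdh5 (0.73, adjusted p = 0.00044), Emcn (-1.42) and Robo4 (-1.41) were called, Cd34 was at 0.50, Icam2 at 0.28 and Pecam1 at 0.16, Cldn5 and Egfl7 turned to -0.27 and -0.28, and Esam was at 0.07 and Mcam at 0.06. A change of scaling shifts all genes of this comparison by a similar amount. That the 8 genes stayed above the median of all genes, and Emcn and Robo4 below it, is therefore no separate check. A sum of 10 haematopoietic markers also moved with GFP in ECs, ranging from 174 to 477 CPM in GFP+ and from 43.1 to 129.3 CPM in GFP- pools. Blood lineage lists did not rise with it. The sum of 6 megakaryocyte markers had medians of 44.7 CPM in GFP+ and 70.6 CPM in GFP- ECs, and that of 7 macrophage markers 50.3 and 65.2 CPM. The sum of 7 mural markers ranged from 99.7 to 3360 CPM (median 320 CPM) and from 59.3 to 140.2 CPM (median 90.9 CPM). That of 7 mesenchymal markers ranged from 19.9 to 1317 CPM (median 55.2 CPM) and from 1.61 to 66.3 CPM (median 12.5 CPM). That of 5 epithelial markers ranged from 22.3 to 124.3 CPM (median 59.5 CPM) and from 0.175 to 8.88 CPM (median 2.51 CPM). Among single genes of these lists, Ptprc reached 25.9 CPM and Pdgfrb 14.8 CPM, each in 1 GFP+ EC pool. Scaled without TMM factors, Ptprc ranged from 0.670 to 25.4 CPM in GFP+ and from 1.13 to 9.71 CPM in GFP- ECs. On that scale Itga2b ranged from 0 to 14.5 and from 0 to 7.98 CPM, so that the ranges of both genes overlapped. Pdgfrb ranged from 0 to 14.4 and from 0 to 0.515 CPM. The part of these cells in the changes of the members was not tested. The sum of 12 endothelial markers other than the members had medians of 4206 CPM in GFP+ and 2620 CPM in GFP- ECs. Over the pools of either EC population, no member's level followed the haematopoietic score at an adjusted permutation p below 0.0985 (largest r = 0.575, Icam2 in 20 GFP- pools).

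Partner proteins from lists that had been put together by function changed in both directions in ECs. Of 10 tested catenin and cadherin partners, 5 were higher and 2 lower in GFP+ ECs. Ptprb, the phosphatase VE-PTP that binds VE-cadherin, rose most clearly, 5.29-fold, whereas Ctnna1 (alpha-catenin, -0.31) and N-cadherin, Cdh2 (-1.08), were lower on the log2 scale. The level of beta-catenin, Ctnnb1, was at 0.42 by TMM but at -0.27 with spike-in factors. Of 12 tight junction partners, 5 were higher and 2 lower. Occludin, Ocln, ranged from 33.5 to 99.97 CPM in GFP+ ECs and from 0 to 9.37 CPM in GFP- ECs, and Cgnl1 (paracingulin) was 2.64-fold higher, while Cldn11 was at most 0.698 CPM in GFP+ ECs and up to 35.2 CPM in GFP- ECs.

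Of 23 other endothelial surface proteins, 11 were higher in GFP+ ECs, led by Clec14a (4.42-fold) and the receptor Tie1 (2.65-fold), and 4 were lower, led by the apelin receptor Aplnr (11.7-fold lower) and its ligand Apln (10.9-fold lower). Of 11 tested ligands and partners of the members, 9 were higher and 0 lower by edgeR at this threshold, among them Mmrn2 (3.23-fold), the ligand of Clec14a, and the Robo ligand Slit2, which had a median of 77.9 CPM in GFP+ and 10.2 CPM in GFP- ECs. With spike-in factors the 4 lists had 1, 3, 4 and 7 genes higher and 3, 2, 6 and 0 lower. The background of 36% called applies to these counts as well.

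The 170 bases before the gene start are shown for Cd34, Cldn5, Emcn and Robo4, from RefSeq's table for GRCm38.p6. These 4 genes were set by the availability of such a window, not by the direction of their change. Capitals mark matches to the ETS letters CAGGAA or CCGGAA, the GATA letters AGATAA or TGATAA and the SOX letters ACAAT, searched on both strands. These letters occur, for ETS, GATA and SOX in that order, in 26.7%, 11.1% and 19.6% of 32851 promoter windows of the same length, and the RUNX letters TGTGGT in 9.52%.
Cd34, chr1:194938649-194938818, + strand: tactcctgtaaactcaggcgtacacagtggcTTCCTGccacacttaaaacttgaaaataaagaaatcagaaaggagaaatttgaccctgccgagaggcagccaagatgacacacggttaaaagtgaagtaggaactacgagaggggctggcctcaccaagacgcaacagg
Cldn5, chr16:18776677-18776846, + strand: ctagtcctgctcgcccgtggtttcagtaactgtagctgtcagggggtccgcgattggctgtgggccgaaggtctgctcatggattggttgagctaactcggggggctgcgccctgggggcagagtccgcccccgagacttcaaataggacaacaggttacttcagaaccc
Emcn, chr3:137340897-137341066, + strand: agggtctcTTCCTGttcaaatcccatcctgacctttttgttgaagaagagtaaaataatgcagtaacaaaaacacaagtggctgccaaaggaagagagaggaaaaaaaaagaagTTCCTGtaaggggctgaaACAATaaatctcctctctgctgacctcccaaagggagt
Robo4, chr9:37401727-37401896, + strand: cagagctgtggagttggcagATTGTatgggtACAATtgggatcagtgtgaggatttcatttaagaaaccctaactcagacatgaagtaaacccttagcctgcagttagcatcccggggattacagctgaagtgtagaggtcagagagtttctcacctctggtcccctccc
Emcn held 2 ETS matches, 162 and 56 bases before the start, and 1 SOX match at 38 bases. Cd34 held 1 ETS match, Robo4 held 2 SOX matches, the farther at 150 bases, and Cldn5 none of the 4. No GATA or RUNX match was found in these 4 windows, which says only that these letters are not in them. Of the 10 genes, 6 have an entry in that table, and only these 4 gave a usable window of that length.

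**Figure D2:**
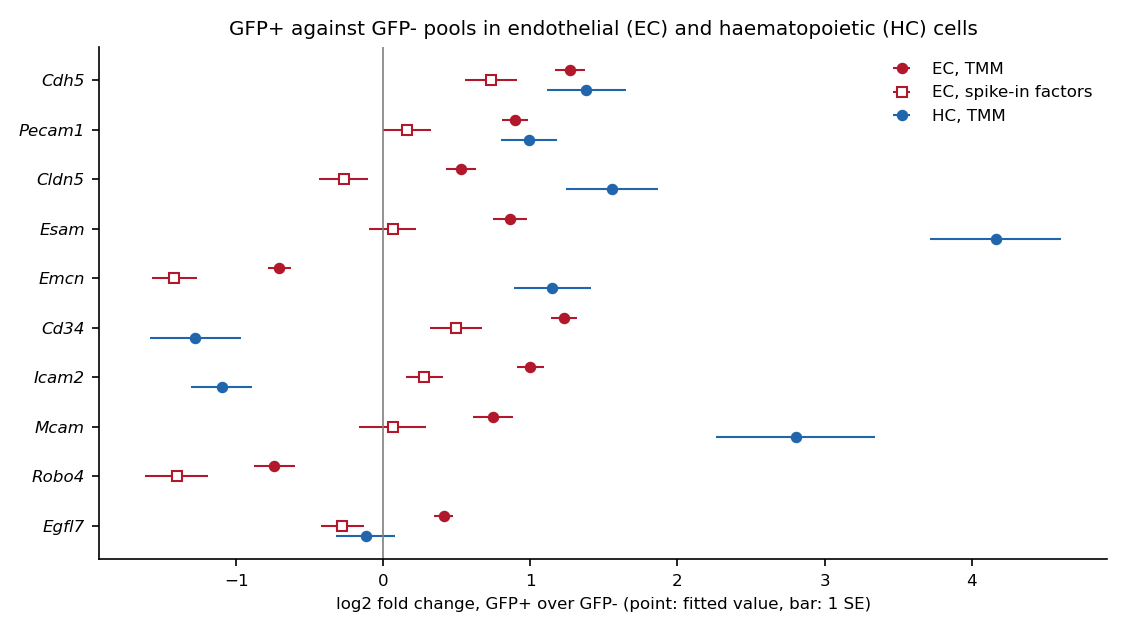
Log2 fold change of each gene between GFP+ and GFP- pools, with 1 SE, in ECs scaled by TMM (filled red), in ECs scaled by ERCC spike-ins (open red squares) and in HCs scaled by TMM (blue). Emcn lies below 0 in ECs and above 0 in HCs, Cd34 and Icam2 the reverse, and Esam in HCs has the largest value, 4.16. Robo4 has no HC point because it did not pass the count filter there.

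In HCs the same 10 genes were at a small share of their EC level, and GFP+ and GFP- pools differed in a different pattern. Of the 9 genes that passed the filter (Robo4 did not), 8 were called: Esam, Mcam, Cldn5, Cdh5, Emcn and Pecam1 were higher in GFP+ HCs, and Cd34 and Icam2 were lower. The background was 26.6% of 16200 genes, 17.1% higher and 9.53% lower. The median log2 fold change of the 9 genes was 1.15 and that of all genes 0.05. With spike-in factors the same 8 genes were called in the same direction.

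Esam showed the largest difference of the 9, from 5.79 to 331 CPM in GFP+ HCs and from 0.901 to 21.2 CPM in GFP- HCs, 17.9-fold (log2 fold change 4.16 ± 0.45 SE, edgeR adjusted p = 1.81e-09), and 16 of 20 GFP+ pools lay above every GFP- pool. Ranges that did not overlap at all were found for 0.0802% of genes in HCs and for no member. Mcam ranged from 1.38 to 94.2 CPM in GFP+ and from 0 to 11.8 CPM in GFP- HCs (6.98-fold, adjusted p = 5.54e-05). Cldn5 was 2.93-fold higher (adjusted p = 0.000104), Cdh5 2.61-fold (adjusted p = 6.16e-05), Emcn 2.22-fold (adjusted p = 0.000537) and Pecam1 1.99-fold (adjusted p = 6.96e-05). For Cdh5 this was a rise from a median of 4.04 to 9.67 CPM, still far under any EC pool.

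Cd34 ranged from 8.91 to 173 CPM in GFP+ HCs and from 23.9 to 329 CPM in GFP- HCs, 2.42-fold lower with GFP (log2 fold change -1.28 ± 0.31 SE, adjusted p = 0.00105). In 16 of 20 GFP+ pools it was below the GFP- median. Icam2 was 2.14-fold lower (log2 fold change -1.10 ± 0.21 SE, adjusted p = 4.53e-05), and all 20 GFP+ pools lay below the GFP- median of 38.6 CPM. Egfl7 gave no call (log2 fold change -0.12 ± 0.20 SE, adjusted p = 0.68), and its ranges, 19.8 to 118.3 and 18.3 to 107.02 CPM, largely coincided.

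Other cell markers differed between these pools as well. The summed level of 6 megakaryocyte markers had a median of 9612 CPM in GFP+ and 590 CPM in GFP- HCs, that of 7 macrophage markers 5188 and 7451 CPM, that of 12 endothelial markers other than the members 162 and 48.3 CPM, that of 7 mesenchymal markers 270 and 36.4 CPM, and that of 10 sympathetic and neural crest markers 57.8 and 4.86 CPM, with 1294 CPM at most. Across the 20 GFP+ HC pools, log2 Esam followed the megakaryocyte score, the mean log2(CPM + 1) of its 6 genes (r = 0.903, rho = 0.908, permutation p = 1e-05 for each, the smallest that 100000 permutations can give, adjusted p = 0.00118 for each over all relations of a member with a marker score that were computed, 20 in ECs, 68 in HCs, 18 in MCs and 12 in SNS cells), and without the 2 pools farthest from the median r was 0.928. It ran opposite to the macrophage score (r = -0.704, rho = -0.713, adjusted permutation p = 0.00865 and 0.0346, r = -0.663 without the 2 farthest pools) and with the endothelial score (r = 0.664, rho = 0.702, adjusted permutation p = 0.0285 and 0.0346, r = 0.598 without the 2 farthest pools).

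In the 20 GFP- HC pools, Esam also rose with the endothelial (r = 0.736, rho = 0.571) and megakaryocyte scores (r = 0.664, rho = 0.552), with adjusted permutation p of 0.00865 and 0.0285 for r but 0.143 and 0.154 for rho, and r fell to 0.505 and 0.345 without the 2 farthest pools. All these relations were chosen after the values had been seen. Mcam in GFP+ HCs followed the sympathetic score (r = 0.630, rho = 0.523, adjusted permutation p = 0.0475 and 0.179, r = 0.633 without the 2 farthest pools). Without the 10 GFP+ pools above 40 CPM of sympathetic markers, Mcam dropped to a log2 fold change of 1.25 (adjusted p = 0.0841) and Emcn to 1.01 (adjusted p = 0.0145), both no longer called against a background of 22.1%, while Esam (4.65), Cdh5 (1.56), Pecam1 (1.21), Cldn5 (1.66), Cd34 (-1.10) and Icam2 (-0.86) kept their calls by edgeR. Without the pool with the lowest Ptprc, which held the highest Esam, 40005 CPM of Pf4 and 1410 CPM of Itga2b, the call of no member changed, against a background of 25.5%, and Esam was at 3.92.

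The partner lists moved mainly upward in GFP+ HCs: 8 of 12 catenin and cadherin partners, 11 of 13 tight junction partners, 8 of 20 other endothelial surface proteins and 7 of 15 ligands and partners were higher, and 0, 1, 0 and 1 lower by edgeR, against the 17.1% and 9.53% of all genes. Without the 10 pools holding sympathetic markers, 7 of 11, 6 of 10, 7 of 20 and 6 of 15 were higher and 0, 1, 2 and 1 lower, where 22.1% of all genes were called. The clearest were afadin, Afdn (11.01-fold), Ctnna1 (1.81-fold), the junction protein F11r (3.84-fold), the tetraspanins Cd151 (3.20-fold) and Cd9 (5.54-fold, median 521 CPM), and the guidance receptors Unc5b (15.04-fold) and Robo1 (17.6-fold). F11r, Cd9 and Cd151 are also known from platelets. Cldn11 reached 27.6 CPM in GFP+ pools, with a median of only 1.196 CPM, and was at most 0.763 CPM in GFP- pools. It was not among the higher genes without the 10 pools holding sympathetic markers. Cldn15 had medians of 0 and 5.24 CPM, and the integrin chain Itgam was 2.83-fold lower in GFP+ HCs.

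**Figure D3:**
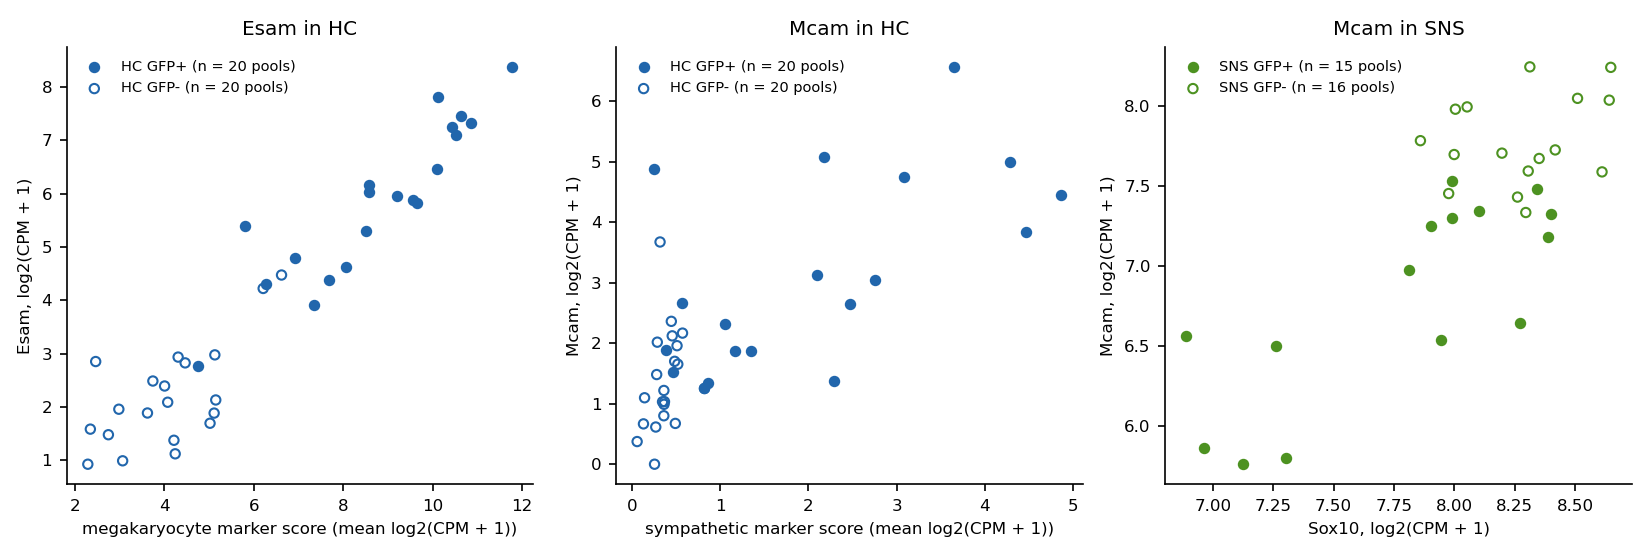
Each point is 1 pool (filled GFP+, open GFP-): Esam in HCs against the megakaryocyte score, Mcam in HCs against the sympathetic score, and Mcam in SNS cells against Sox10, all as log2(CPM + 1), the scores as means over their genes. Esam rises along the megakaryocyte score in GFP+ HCs (r = 0.903, 20 pools), and the 12 libraries that go against their label are left out.

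Whether GFP went with the same difference in ECs and HCs was tested by the interaction, the EC log2 difference minus the HC log2 difference, in 1 fit of the 4 E10.5 populations. Of the 9 genes that passed the filter in both cell types 6 were called, against 22.5% of 17851 genes, 9.27% with a positive and 13.2% with a negative value. Cd34 (2.55 ± 0.33 SE, adjusted p = 1.96e-09) and Icam2 (2.15 ± 0.22 SE, adjusted p = 1.06e-12) had differences in opposite directions, being higher with GFP in ECs and lower in HCs. Esam (-3.26 ± 0.42 SE, adjusted p = 1.71e-09), Mcam (-2.13), Emcn (-1.85 ± 0.25 SE, adjusted p = 3.76e-09) and Cldn5 (-1.08, not called without the count filter, adjusted p = 0.013) had the larger difference in HCs. For Emcn the differences pointed opposite ways. Cdh5 (-0.12 ± 0.24 SE, adjusted p = 0.755) and Pecam1 (-0.06 ± 0.21 SE, adjusted p = 0.869) were not called, and Egfl7 missed the threshold (0.58 ± 0.21 SE, adjusted p = 0.0266).

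Robo4 entered this fit only through the ECs. It was called at -1.82, but its HC side rested on counts of at most 75, with 3 GFP+ and 4 GFP- pools at 0. Without the 10 pools holding sympathetic markers Robo4 was at -1.47 (adjusted p = 0.0153) and Mcam at -0.46 (adjusted p = 0.471), both no longer called, against a background of 21%, and the other 5 kept their calls in that fit. With spike-in factors the same 6 genes and Robo4 were called in the same direction, while the split over all genes moved from 1654 higher and 2357 lower to 519 and 5241.

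Between the cell types, leaving out Cdh5, whose protein was the EC gate, and Robo4, which passed the filter only through the ECs and was at -6.61, all 8 genes were lower in HCs than in ECs, against 50.3% of 17851 genes called, 24.8% lower and 25.5% higher. Averaged over GFP+ and GFP-, the log2 differences ran from -3.68 (Cd34) and -4.06 (Pecam1) to -6.69 (Emcn) and -7.10 (Cldn5), with adjusted p of 1.67e-31 for Cd34 and 1.86e-50 for Cldn5. Icam2 (-4.16), Egfl7 (-4.35), Esam (-4.73) and Mcam (-5.33) lay between them. The differences were unequal in GFP+ and GFP- cells for some genes: Esam was at -3.10 (log2) in GFP+ HCs against GFP+ ECs but at -6.36 in the GFP- pair, whereas Cd34 was 30.9-fold and 5.29-fold lower. With spike-in factors all 8 were still lower, from -3.23 (Cd34) to -6.64 (Cldn5), although the split over all genes moved from 4557 higher and 4425 lower to 7403 and 2509.

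In MCs, Mcam was the member with a call in the fit of all passing pools. It ranged from 189.6 to 547 CPM in 20 GFP+ pools and from 64.2 to 172 CPM in 17 GFP- pools, without overlap, and was 2.90-fold higher in GFP+ MCs (log2 fold change 1.54 ± 0.15 SE, edgeR adjusted p = 3.6e-09). The 5 members that passed the filter stood against a background of 4.36% of 16026 genes called and 2.21% called higher, and 0.0312% of genes had ranges that did not overlap. Without the libraries labelled MC that went against their label, Mcam was at 1.53 and still without overlap, at a background of 0.524%. The MC libraries that went against their label held 265 to 340 CPM of Mcam (GFP+) and 68.2 to 137.4 CPM (GFP-). These values lay inside the range of the population whose label they carry, and also overlapped the other SNS pools of the opposite GFP label, at 160.6 to 303 CPM (GFP-) and 53.3 to 184 CPM (GFP+). Gata3 in the 3 such libraries labelled GFP- MC was at 122.6 to 395 CPM, against 2.52 to 19.02 CPM in the other GFP- MC pools and 111.05 to 306 CPM in the other GFP+ SNS pools. Scaled without TMM factors, Ngfr was at 296.4 to 359.8 CPM in those labelled GFP+ MC. The other SNS pools had 199.8 to 350.1 CPM (GFP-) and 47.85 to 160.3 CPM (GFP+). Mesenchymal markers, on that scale, summed to 2229 to 2421 CPM in those labelled GFP+ SNS and 3224 to 4039 CPM in those labelled GFP- SNS. The other MC pools had 2106 to 3471 CPM (GFP-) and 2893 to 4183 CPM (GFP+). Whether the GFP labels were exchanged as well was not tested.

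Esam and Cd34 were not called over all pools (3.01 ± 0.83 SE, adjusted p = 0.0152, and 2.01 ± 0.56 SE, adjusted p = 0.0177) but were called without those libraries, by edgeR, where 10.4% of 15226 genes were called. Cd34 then ranged from 55.2 to 127.5 CPM in 17 GFP+ pools and from 6.56 to 69.9 CPM in 14 GFP- pools (3.90-fold higher, adjusted p = 5.42e-07), and Esam from 3.28 to 80.3 CPM and from 0 to 16.9 CPM (7.76-fold higher, adjusted p = 0.00211). All 17 GFP+ pools had at least 10 counts of Esam, against 5 of the 14 GFP- pools. Emcn (-0.23 ± 0.43 SE, adjusted p = 0.79) and Egfl7 (0.27 ± 0.25 SE, adjusted p = 0.537) gave no call, with Emcn at medians of 18.1 and 20.6 CPM. In the same pools 7 mural markers summed to 5197 to 11246 CPM in GFP+ and 986 to 4858 CPM in GFP- MCs, also without overlap, while Cdh5 and Robo4 had a median of 0. The part of mural cells in these differences was not tested. Over the lists, 3 of 11 ligands and partners were higher in GFP+ MCs, led by the netrin receptors Unc5b (3.83-fold, log2 2.19 without the libraries against their label) and Unc5c (2.70-fold, log2 1.503), and of the catenin, tight junction and other surface lists 0 of 11, 0 of 12 and 0 of 13 genes were called by edgeR. Without the libraries against their label, the counts were 5 of 10 higher, and 2, 1 and 2 higher and 0, 0 and 1 lower. The share of all genes called was 4.36% with all pools and 10.4% without those libraries.

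In SNS cells the difference in Mcam was reversed. It ranged from 53.3 to 184 CPM in 18 GFP+ pools and from 160.6 to 341 CPM in 19 GFP- pools, and 14 GFP+ pools lay below every GFP- pool (1.92-fold lower, log2 fold change -0.94 ± 0.15 SE, adjusted p = 5.77e-05 by edgeR), against 3.87% of 16143 genes called and 1.85% called lower. It was at -0.90 without the libraries against their label, where 10.4% of 15658 genes were called, and at -0.55 (adjusted p = 0.0544) with spike-in factors, which moved the median of all genes to 0.35 and the split from 325 higher and 299 lower to 844 and 169. Across 15 GFP+ SNS pools Mcam rose with Sox10, a factor of neural crest and glial precursors (r = 0.782, rho = 0.711, adjusted permutation p = 0.0245 and 0.0968 over the same relations, r = 0.789 without the 2 farthest pools). Cldn5 was at 2.04 but not called (adjusted p = 0.0738, and 0.0204 without the libraries against their label), and the other members tested gave no call.

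Of the partner lists in SNS cells, 0, 1, 2 and 0 genes were higher and 2, 1, 0 and 1 lower with GFP, of 11 catenin and cadherin partners, 13 tight junction partners, 14 other surface proteins and 11 ligands. Over all genes tested, 3.87% were called. Cdh2 (1.44-fold) and Ctnnd1 (p120 catenin, 1.46-fold) were lower, although neither was called with spike-in factors, F11r (4.75-fold) and Egfl8 (9.17-fold) were lower as well, and Jam2 (2.29-fold), Thbd (4.12-fold) and Cd9 (3.30-fold) were higher. Without the libraries against their label, 0, 1, 2 and 3 were higher and 6, 3, 2 and 3 lower, of 11, 13, 12 and 10. The share of all genes called was then 10.4%.

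**Figure D4:**
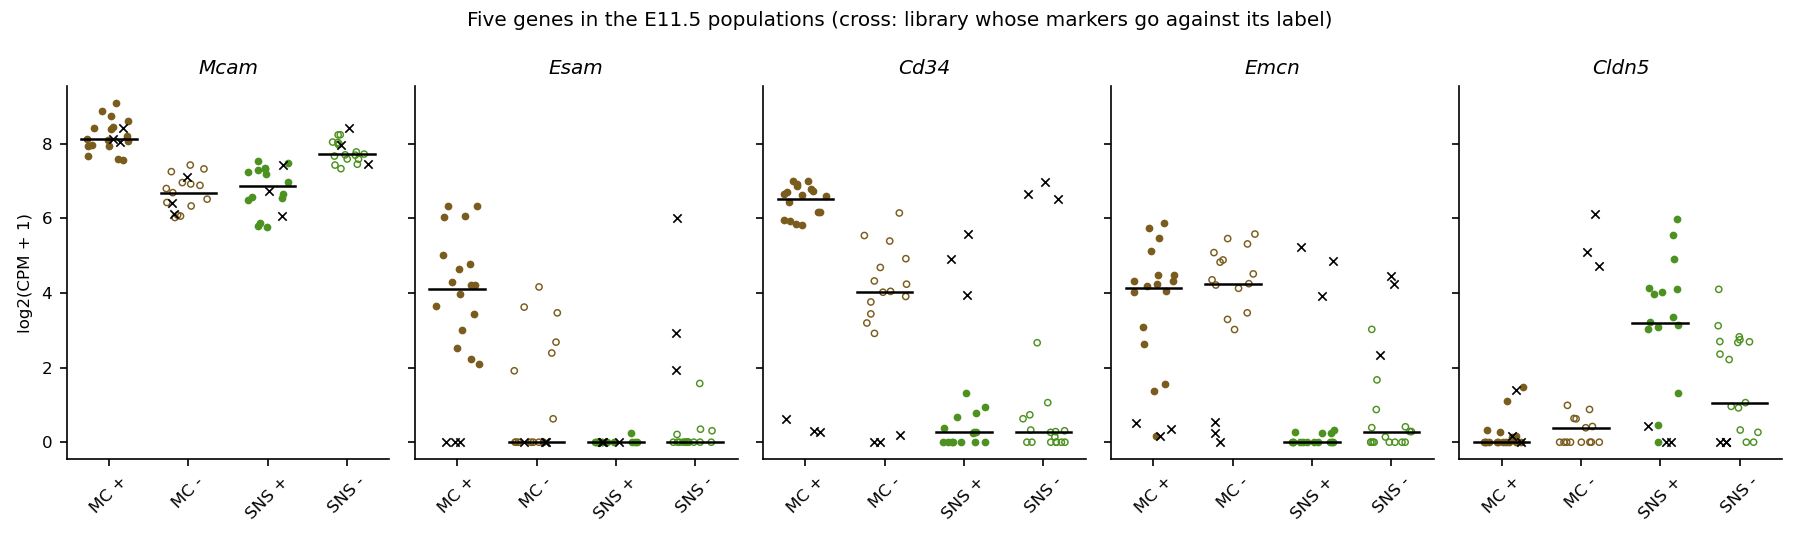
Levels of Mcam, Esam, Cd34, Emcn and Cldn5 as log2(CPM + 1) in every passing MC and SNS pool (filled GFP+, open GFP-, bar the median of all pools, cross a library whose markers go against its label). Mcam is higher in GFP+ than in GFP- MCs and lower in GFP+ than in GFP- SNS cells. For Esam, Cd34, Emcn and Cldn5 the crosses leave the points of their own label in some populations. Esam in GFP+ SNS cells and Cldn5 in GFP+ MCs have almost no counts, crosses included. For Mcam the crosses lie among or close to the points of their label.

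The opposite directions of Mcam gave an interaction of 2.49 ± 0.21 SE (MC difference minus SNS difference, adjusted p = 1.65e-14), and of 2.42 without the libraries against their label. In that test 9.66% of 17733 genes were called with all pools, and 10.4% of 17309 without those libraries. Averaged over GFP, the difference of Mcam between SNS and MC cells was not called (-0.14 ± 0.10 SE, adjusted p = 0.334), being 2.61-fold lower in GFP+ SNS cells than in GFP+ MCs and 2.16-fold higher in the GFP- pair, both called against backgrounds of 24.5% and 5.74%. Without the libraries against their label these folds were 2.60 and 2.06. Esam (9.74) and Cldn5 (-6.83) were also called in the interaction with all pools. Both values rest on populations with almost no counts (Esam at most 1 count in any GFP+ SNS pool, Cldn5 at most 7 in any GFP+ MC pool) and depend on the fit's prior count, and without those libraries Esam was at 5.15 (adjusted p = 0.00526) and Cldn5 at -2.24 (adjusted p = 0.206).

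Between the E11.5 cell types, 4 members passed the filter within both with all pools: Mcam, Egfl7, Emcn and Cd34. In SNS cells Emcn and Cd34 did so only with the libraries against their label, so that their calls also describe where they were read. With all pools Emcn (-2.42, adjusted p = 0.00123) and Cd34 (-2.06, adjusted p = 0.00561) were called lower in SNS cells, against 23.4% of 17733 genes, while Mcam and Egfl7 were not called. Without the libraries against their label 40.2% of 17309 genes were called, and Emcn (-6.63) and Cd34 (-6.77) passed the filter only through MCs. Esam passed only through MCs, and Pecam1, Cldn5 and Icam2 only through SNS cells, so that their calls (Esam lower, Pecam1 and Cldn5 higher in either fit, Icam2 higher in the second) describe where they were read. The levels behind these calls without the libraries against their label were low except for Cd34: Emcn had medians of 18.1 and 20.6 CPM in GFP+ and GFP- MCs and at most 7.15 CPM in any SNS pool, Cldn5 at most 1.81 CPM in any MC pool, and Pecam1 at most 3.87 CPM in any SNS pool and 0.356 CPM in any MC pool. With spike-in factors the split over all genes moved from 2013 higher and 2135 lower to 7623 and 922, and the difference of Mcam turned to 0.37 (adjusted p = 0.0166).

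Within the EC and HC populations, no relation between Cdh5 and another member was detectable after adjustment. Of 33 relations of log2 Cdh5 with another member, 0 passed an adjusted permutation p of 0.05, the smallest being 0.0766, with r from -0.641 (Esam in GFP+ ECs, -0.426 without the 2 farthest pools) to 0.524 (Esam in GFP- HCs), and 5 had an unadjusted p under 0.05 by Pearson's r and 4 by Spearman's rho.

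By the GENCODE gene spans on GRCm38, the members lie apart: Cdh5 at chr8:104101625-104144511, Cldn5 at chr16:18776847-18778262, Emcn at chr3:137341067-137432185, Cd34 at chr1:194938819-194961279 and Egfl7 at chr2:26580014-26593120 on the + strand. Pecam1 (chr11:106654217-106750628) and Icam2 (chr11:106377656-106388075), both on the - strand, are 266 kb apart, and Robo4 (chr9:37401897-37415115) and Esam (chr9:37528078-37538319), both on the + strand, are 112.96 kb apart. Pecam1 and Icam2 were both higher in GFP+ ECs, but in HCs Pecam1 was higher and Icam2 lower, and of the other pair Esam was higher and Robo4 lower in GFP+ ECs. Mcam is at chr9:44134469-44142727 on the + strand. All are protein-coding genes with 1 (Cldn5) to 17 (Pecam1) exon blocks.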

How the data were processed

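The authors counted reads per gene with HTSeq and deposited 1 table of raw counts for 160 pools and 92 ERCC spike-ins. The study's methods name STAR with Ensembl 81, whereas the submitters' processing notes name GSNAP, HTSeq 0.5.3p3 and mm10. Whether strand was used is not given in the sources used here. Pools with more than 500000 counts assigned to genes and ERCC RNAs, more than 20% of reads on genes and under 20% mitochondrial and 20% ERCC counts were kept, the 5 HTSeq summary lines stayed out of library sizes, and genes needed 10 counts in 5 pools.

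Counts were tested with edgeR 4.0.16 (R 4.3.3; TMM factors, robust quasi-likelihood fit, Benjamini-Hochberg adjustment over all genes), where a call needed an adjusted p below 0.01 and a log2 fold change of more than 0.1 in size. The code was checked on simulated counts. Alternatives used ERCC, DESeq2 1.42.0 and scran 1.30.0 factors, other filters, the DESeq2 Wald test, a t-test after the study's own procedure, and fits without doubted pools, the last added after the data had been seen. Correlations used 100000 permutations. Intervals between pools cover the spread of pools only. The members and lists were chosen with earlier results of these data known. All 10 members were named, and from each list the 2 called genes with the smallest adjusted p in each direction. Of the genes this rule names, 1 is not reported here.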

Additional observations from a re-analysis of the deposited data

Results flagged for a closer look

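For Cd34, Icam2, Emcn, Esam, Mcam and Cldn5, which passed the filter in both cell types, the difference between GFP+ and GFP- cells was unequal in ECs and HCs. This was by the test of the interaction (EC minus HC, log2), where 22.5% of all genes tested were called. Cd34 (2.55) and Icam2 (2.15) were higher with GFP in ECs and lower in HCs, and Emcn (-1.85) was the reverse. Esam (-3.26), Mcam (-2.13) and Cldn5 (-1.08) were higher with GFP in both cell types by TMM, with the larger difference in HCs. Robo4 was also called (-1.82), but it entered the fit only through the ECs, where it was lower with GFP. In HCs it was near the detection limit and did not pass the count filter. Without the 10 GFP+ HC pools holding sympathetic markers, Mcam (-0.46, adjusted p = 0.471) and Robo4 (-1.47, adjusted p = 0.0153) were no longer called by edgeR. In MCs against SNS cells (MC minus SNS), the difference was unequal for Mcam (2.49), Esam (9.74) and Cldn5 (-6.83). The values of Esam and Cldn5 depend on libraries that go against their label and on populations with almost no counts, and without those libraries they were 5.15 and -2.24.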

How the results depend on the processing

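Of 1335 values of single genes under an alternative, 1281 kept their direction and their side of the threshold, 28 lost the call, 12 gained it and 14 changed sign. With spike-in factors, Cldn5 (-0.27), Egfl7 (-0.28) and Ctnnb1 (-0.27) changed sign between GFP+ and GFP- ECs, Egfl7 in the EC and HC interaction (-0.14), Mcam (0.37) and Egfl7 (0.39) between SNS and MC cells, and Pecam1 (0.37) and Egfl7 (0.074) between GFP+ and GFP- SNS cells, and the members called were 3 in ECs and 0 in SNS cells. Pecam1 in the EC and HC interaction was at 0.025 without the HC pool lowest in Ptprc. In SNS cells Cd34 turned to 1.17 by the DESeq2 Wald test and Emcn to -0.57 by the study's t-test, and without libraries against their label the MC and SNS interaction turned to 1.57 for Pecam1, 2.81 for Emcn and 1.27 for Icam2, none of them called. Genes called with spike-in factors were 381 in MCs, 1013 in SNS cells and 8545 between SNS and MC cells. At an adjusted p under 0.05 they were 1514 in MCs, 1331 in SNS cells and 2961 in their interaction, with 3 members called in MCs. Without libraries against their label they were 1586 in MCs, 1631 in SNS cells and 6963 between both, with 3 members called in MCs. In MCs 2 members were called in 5 of the alternatives, in which 2.76% to 6.08% of all genes were called: besides Mcam, this was Cldn5 (lower) without the count filter and in 1 fit of the 4 populations, Esam (higher) with all pools and by the study's t-test, and Cd34 (higher) by DESeq2. In SNS cells 2 members were called without the filter and in 1 fit of the 4 populations (2.23% and 2.90% of all genes), the second being Esam (lower). These fits included the libraries against their label. Within its cell type, neither Cldn5 in MCs nor Esam in SNS cells passed the count filter, with or without those libraries. The cause of these changes was not tested. The split of calls into higher and lower genes in ECs was 2405 and 3102 by the t-test. No paired analysis was possible because the columns carry no replicate numbers, so the fit with a replicate block was not run. Apart from the HC pool lowest in Ptprc, no pool was left out singly, since every group has more than 5. Levels under 10 counts, such as Robo4 in HCs, are limited by depth.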
